A study of Mus musculus with 9 samples.

Results

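Glucocorticoid signalling was described through 10 genes in the injured mouse spinal cord: the activating enzyme gene Hsd11b1, the receptor genes Nr3c1 and Nr3c2, the receptor targets Fkbp5, Tsc22d3, Sgk1, Zbtb16 and Klf9, and the metallothionein genes Mt1 and Mt2. They were taken by symbol from the 52550 genes of the count table. They were chosen by their known roles and with the fold changes of the 3 group comparisons in view. Their values are therefore given as a description, and no p-value is printed for any of the 10 genes. The limits applied to them below include an adjusted p-value, and these calls are part of the description.

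RNA of the spinal cord around the lesion was sequenced 7 days after surgery in 9 adult female C57BL/6N mice, 3 per group. The Sham group underwent laminectomy alone, and no injection is stated for them. SCI mice received a contusion at the T10 level followed by intraperitoneal DMSO, the vehicle. SCI+FIPI mice received the same contusion followed by daily intraperitoneal FIPI, a small-molecule inhibitor of phospholipase D. As no injection is stated for Sham, contusion and injection cannot be told apart in the comparisons with Sham. The labels name no glucocorticoid treatment, and hormone levels are not part of the count data. The same Sham and SCI mice served in more than one comparison, so the 3 comparisons are not independent. Total counts lay between 20806000 and 24582377 per mouse. Markers of cord tissue were present: all 5 neuron, 5 astrocyte and 5 oligodendrocyte markers had counts in each mouse, and the oligodendrocyte markers summed to 31290 to 32830 CPM (counts scaled to a library total of 1000000) in Sham, 21800 to 24330 in SCI and 22410 to 26490 in SCI+FIPI.

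Corticosterone, the main glucocorticoid of mice, crosses cell membranes and binds the glucocorticoid receptor, which is held in the cytoplasm by heat shock protein chaperones. The bound receptor moves to the nucleus and raises transcription of targets that include its own brake, Fkbp5. Inside cells the enzyme encoded by Hsd11b1 regenerates corticosterone from its inert keto form, with cofactor supplied by H6pd. The mineralocorticoid receptor, Nr3c2, binds the same hormone with higher affinity and is found in neurons of the central nervous system.

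In SCI against Sham, 5 of the 9 genes that could be tested passed both limits: the log2 fold change had to reach 0.5 in size, with an adjusted p-value below 0.05. Fkbp5, Sgk1 and Mt1 were higher, and Hsd11b1 and Nr3c2 were lower. Of all 18699 genes tested, 24.4% passed the limits as higher and 22.5% as lower, 47.0% in all. Because the genes were chosen with this comparison known, nothing is read from their share. Between the injured groups (SCI+FIPI against SCI), Sgk1 alone passed the limits, as lower, while 2.36% of all genes passed as higher and 0.695% as lower (3.06% in all). For SCI+FIPI against Sham, Fkbp5, Sgk1 and Mt1 passed as higher and Hsd11b1 and Nr3c2 as lower, beside 21.2% of all genes higher and 17.0% lower (38.1% in all). Genes whose 2 groups did not overlap made up 70.6% of all genes in SCI against Sham, 30.2% in SCI+FIPI against SCI and 66.3% in SCI+FIPI against Sham, and each separation of mice described here is to be read beside these shares. The median log2 fold change of the 9 genes was -0.03, -0.11 and -0.24 in these 3 comparisons, and that of all genes was -0.0031, -0.0014 and -0.0028.

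**Figure D1:**
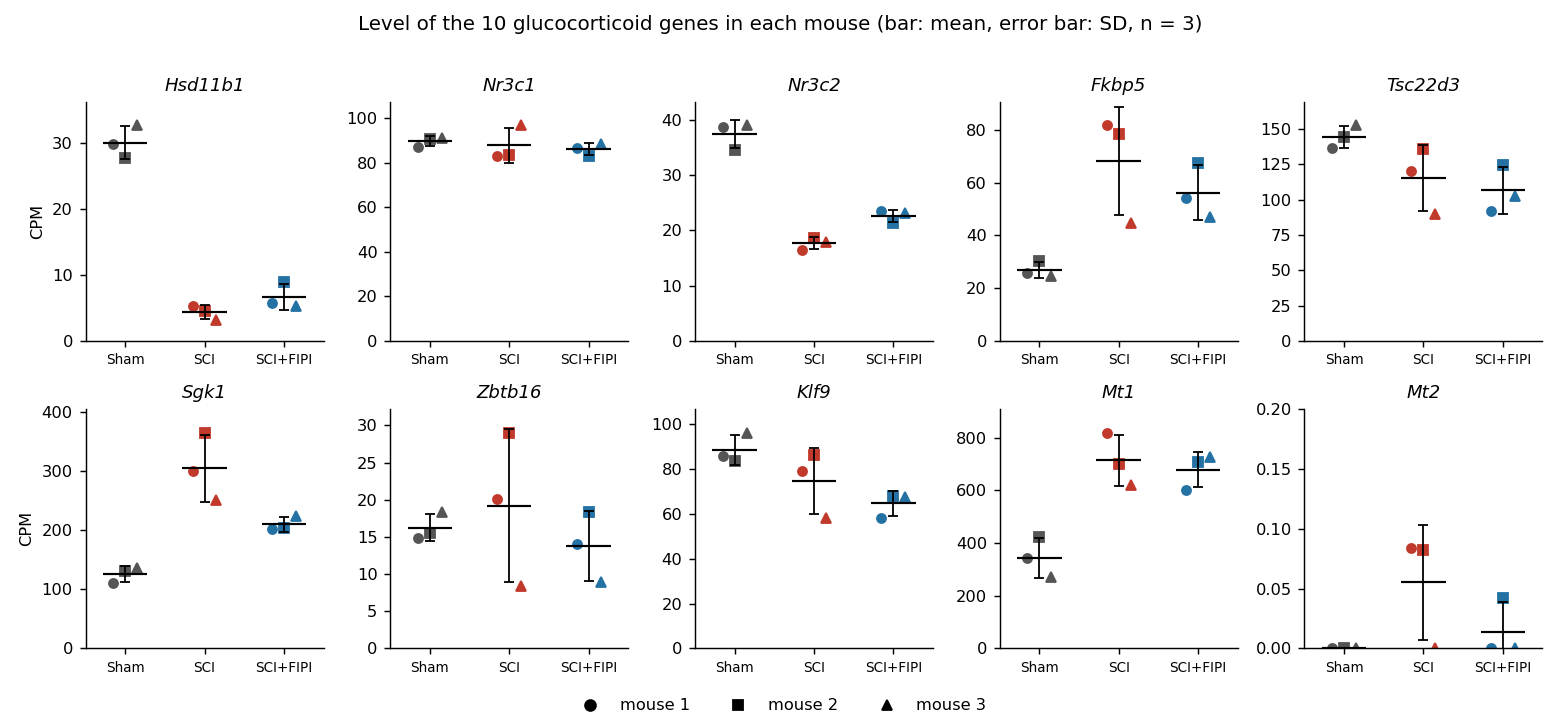
Level of each of the 10 genes in CPM in the 9 mice, with 1 panel per gene and an axis that starts at 0. Symbols mark mouse 1, 2 and 3 of each group, horizontal bars the mean and error bars the SD (n = 3). Hsd11b1 and Nr3c2 were lower and Fkbp5, Sgk1 and Mt1 higher in all injured mice than in the Sham mice, Nr3c1 stayed between 83.2 and 96.7 CPM, and Mt2 was at or near 0 throughout.

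Hsd11b1 showed the largest difference of the 9 genes. It spans chr1:193221634-193264075 on the minus strand (GRCm38). The 3 Sham mice had 29.9, 27.8 and 32.7 CPM. The SCI mice had 5.36, 4.54 and 3.16 CPM. The SCI+FIPI mice had 5.76, 8.98 and 5.24 CPM. Every injured mouse lay below every Sham mouse, whereas the SCI and SCI+FIPI mice overlapped. The log2 fold change was -2.79 ± 0.215 (SE) in SCI against Sham and -2.18 ± 0.205 in SCI+FIPI against Sham. Between the injured groups it was 0.61 ± 0.229, with a 95% interval for this gene alone of 0.10 to 1.12, and the gene did not pass both limits. It did pass them when DESeq2 was used or when no filter on low counts was applied, and the difference was 0.33 without SCI+FIPI mouse 2.

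Neuron markers moved with this gene. Summed CPM of 5 neuron markers (Snap25, Syt1, Rbfox3, Nefl and Nefm, all with counts in every mouse) was 5393 to 6033 in Sham, 1459 to 2164 in SCI and 2503 to 3036 in SCI+FIPI. The single markers had log2 fold changes of -1.96 to -1.46 in SCI against Sham, beside -2.79 for Hsd11b1. All 5 were higher in SCI+FIPI than in SCI, past both limits, by 0.54 to 0.63. In bulk tissue, fewer cells of a type and less RNA per cell cannot be told apart, and the part of neuron number in the level of Hsd11b1 was not tested. Over the 9 mice, the 3 genes whose centred log2 CPM lay nearest to that of Hsd11b1 among 14550 genes were Ankrd34c, Olfm3 and Ndst4, at root mean square differences of 0.260, 0.269 and 0.295.

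Nr3c1, on chromosome 18, encodes the glucocorticoid receptor, the transcription factor on which most actions of the hormone depend. Its level was 87.1, 90.8 and 91.2 CPM in the Sham mice. The SCI mice had 83.2, 83.3 and 96.7 CPM. With FIPI the values were 86.8, 83.2 and 88.5 CPM. All 3 groups overlapped. The log2 fold change was -0.03 in both SCI against Sham and SCI+FIPI against SCI, with a 95% interval of -0.17 to 0.11 in each, and -0.06 in SCI+FIPI against Sham (-0.20 to 0.08). These intervals are narrow beside the limit of 0.5. With offsets for GC content and length the first and the last of these values became 0.22 and 0.15, so no direction is given for Nr3c1. The genes nearest to it over the 9 mice were Msl2, Gtf2ird1 and 4933434E20Rik, at root mean square differences of 0.0326, 0.0332 and 0.0410.

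Nr3c2, the mineralocorticoid receptor gene (chr8:76899442-77245012, plus strand), separated the 3 groups. Sham mice had 38.7, 34.5 and 39.0 CPM. SCI mice had 16.5, 18.6 and 17.9 CPM. SCI+FIPI mice had 23.4, 21.3 and 23.1 CPM. The groups did not overlap in any comparison, and SCI+FIPI lay between the other groups. The log2 fold change was -1.08 ± 0.0819 in SCI against Sham and -0.73 ± 0.0807 in SCI+FIPI against Sham. Between the injured groups it was 0.35 ± 0.0830 (95% interval 0.18 to 0.53), below the limit on the fold change. The neuron markers described above moved the same way in each comparison, and their part in the level of Nr3c2 was not tested.

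Compared per length, within each mouse, the ratio of the receptor transcripts differed between the groups. FPKM is the count divided by exonic length and by the library total. The ratio of Nr3c1 to Nr3c2 in FPKM was 2.03 ± 0.169 (SD, n = 3) in Sham, 4.19 ± 0.395 in SCI and 3.22 ± 0.0875 in SCI+FIPI. The ranges were 1.90 to 2.22, 3.77 to 4.56 and 3.12 to 3.30, without overlap. This ratio was chosen after the values were seen. Nr3c1 itself overlapped between the groups, so the ratio restates the differences in Nr3c2 described above. Receptor protein was not measured.

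**Figure D2:**
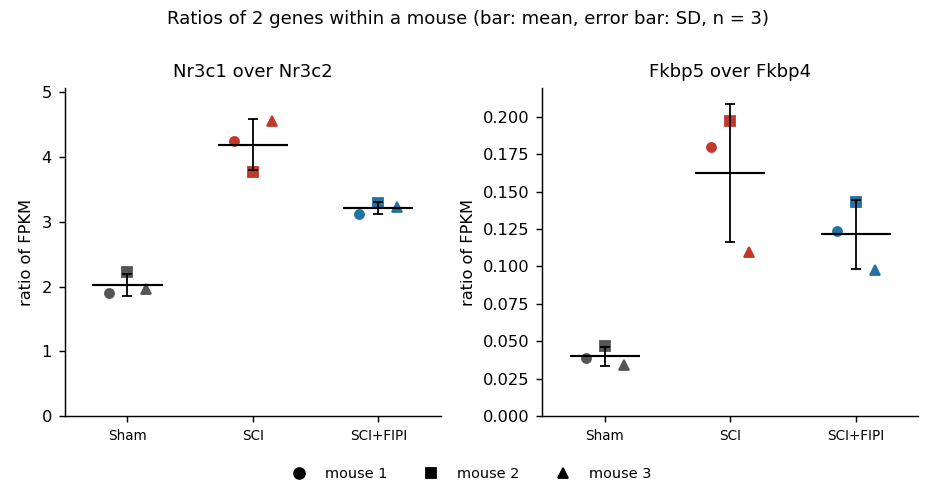
Ratio of Nr3c1 to Nr3c2 (left) and of Fkbp5 to Fkbp4 (right) in FPKM within each mouse, by group, on axes that start at 0. Symbols mark the 3 mice of a group, bars the mean and error bars the SD (n = 3). Both ratios were lowest in the 3 Sham mice, and for Nr3c1 to Nr3c2 the SCI+FIPI mice lay between the Sham and the SCI mice.

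Among the receptor targets, Fkbp5 and Sgk1 were higher in the injured mice than in the Sham mice. Tsc22d3, Zbtb16 and Klf9 passed the limits in neither direction. Fkbp5 (chr17:28399094-28517527, minus strand) encodes a co-chaperone that lowers the hormone affinity of the receptor. Sham mice had 25.8, 30.3 and 24.5 CPM. SCI mice had 81.6, 78.2 and 44.8 CPM. SCI+FIPI mice had 54.2, 67.4 and 46.9 CPM. All injured mice were above all Sham mice, and SCI mouse 3 was lower than every SCI+FIPI mouse. Its log2 fold change was 1.35 ± 0.260 in SCI against Sham, a 2.54-fold higher level, and 1.06 ± 0.260 in SCI+FIPI against Sham. Between the injured groups it was -0.28, and the 95% interval of -0.87 to 0.31 included 0. The genes nearest to Fkbp5 over the 9 mice were Gm14276, Notch4 and Cep85, at root mean square differences of 0.190, 0.213 and 0.223.

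Fkbp4 encodes the related co-chaperone that accompanies the receptor towards the nucleus, in place of the product of Fkbp5. The ratio of Fkbp5 to Fkbp4 in FPKM, also chosen after the values were seen, was 0.0401 ± 0.00634 in Sham, 0.162 ± 0.0462 in SCI and 0.121 ± 0.0228 in SCI+FIPI (SD, n = 3). Every injured mouse, from 0.0974 to 0.197, lay above the Sham range of 0.0344 to 0.0469. The SCI and SCI+FIPI mice overlapped.

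Sgk1 (chr10:21882184-21999903, plus strand) encodes a kinase that regulates ion channels and transporters and responds to both receptors. Sham mice had 110.0, 132 and 137 CPM. SCI mice had 299, 364 and 251 CPM. SCI+FIPI mice had 203, 203 and 224 CPM. The 3 groups did not overlap, with SCI+FIPI between Sham and SCI. In log2 terms the difference was 1.27 ± 0.130 in SCI against Sham (2.42-fold) and 0.73 ± 0.130 in SCI+FIPI against Sham (1.66-fold). With FIPI, relative to SCI, it was -0.54 ± 0.128 (95% interval -0.83 to -0.25), just past the limit on the fold change. When each mouse was left out in turn this difference ranged from -0.66 to -0.39, and Sgk1 no longer passed both limits in 5 of the 9 fits. These were the fits without SCI mouse 1 (-0.55) or 2 (-0.39), or without SCI+FIPI mouse 1 (-0.52), 2 (-0.52) or 3 (-0.59).

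Summed marker levels also separated the injured groups. Microglia and macrophage markers reached 1510 to 1801 CPM in SCI and 1235 to 1394 CPM in SCI+FIPI, and endothelial markers 381 to 409.5 CPM and 295 to 366 CPM. No single gene of these lists passed both limits between the injured groups. Their part in the level of Sgk1 was not tested.

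The promoter sequence of Sgk1 is shown because, of the 15 windows searched for 8 of the 10 genes, a window of Sgk1 alone held a full match to the palindromic glucocorticoid response element. The 42 genes of the other lists were not searched singly. The letters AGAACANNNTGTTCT were searched on both strands in the 250 bases before 32851 annotated starts of mouse genes (RefSeq, GRCm38.p6). Nr3c1 and Zbtb16 had no entry. Sgk1 had more windows than any other of the 8 genes. Only exact matches were counted, and sequence outside the windows was not searched. The element was found in 3 of all windows (0.00913%), and 1 of these was a window of Sgk1 at chr10:21993640-21993889 on the plus strand, inside the annotated span of Sgk1 and outside its exons. The match, in capitals, begins 189 bases before the start at position 21993890:

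Sgk1: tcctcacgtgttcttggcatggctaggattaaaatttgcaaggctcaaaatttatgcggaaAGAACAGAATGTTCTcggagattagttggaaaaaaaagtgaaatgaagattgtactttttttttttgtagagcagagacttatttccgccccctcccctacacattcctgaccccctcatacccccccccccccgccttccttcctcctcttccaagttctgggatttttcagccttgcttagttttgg

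The shorter motif TGTTCT, which is part of the full element, occurred on either strand in 16.1% of all windows. It was found in 4 of the 15 windows, 3 of Sgk1 and 1 of Tsc22d3, the only genes with more than 1 window. A match of letters is a description of sequence, and binding of the receptor was not measured.

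Tsc22d3 (chrX:140539528-140600659, minus strand) encodes the leucine zipper protein GILZ, a mediator of the anti-inflammatory action of glucocorticoids. Sham mice had 137, 144 and 153 CPM. SCI mice had 120.3, 136 and 90.1 CPM. The treated mice had 92.2, 125 and 103 CPM. Each injured mouse was below each Sham mouse, although SCI mouse 2 was within 1 CPM of the lowest Sham mouse. The log2 fold changes were -0.32 ± 0.159 in SCI against Sham and -0.44 ± 0.159 in SCI+FIPI against Sham, both short of the limits. Without SCI+FIPI mouse 2 the latter was -0.56 and passed them. Between the injured groups the difference was -0.11 (95% interval -0.48 to 0.26).

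Klf9 (chr19:23141226-23168134, plus strand) encodes a zinc finger transcription factor that glucocorticoids induce in neural cells. Its levels were 85.7, 83.5 and 95.9 CPM in Sham mice. SCI mice had 79.1, 86.3 and 58.0 CPM. With FIPI they were 58.1, 68.0 and 67.6 CPM. The SCI mice overlapped with both other groups, and the SCI+FIPI mice lay below all Sham mice. None of the log2 fold changes reached the limit: -0.25 ± 0.135 in SCI against Sham, -0.45 ± 0.136 in SCI+FIPI against Sham and -0.21 ± 0.136 in SCI+FIPI against SCI (95% interval -0.51 to 0.10).

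Zbtb16 (chr9:48654297-48836222, minus strand) encodes the transcriptional repressor PLZF, which in many tissues responds strongly to glucocorticoid exposure. Sham mice had 14.9, 15.6 and 18.3 CPM. SCI mice had 20.1, 29.0 and 8.43 CPM. With FIPI they were 14.0, 18.3 and 8.93 CPM. The SCI mice lay on both sides of the Sham range. The log2 fold change in SCI against Sham was 0.24 ± 0.458, and its 95% interval of -0.87 to 1.34 covered large differences in either direction. For SCI+FIPI against SCI it was -0.48 (-1.59 to 0.63). Without SCI mouse 2 the difference between SCI and Sham was -0.18.

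The spread between the SCI mice was wide for the targets and for Hsd11b1. The highest of the SCI mice had 3.44 times the Zbtb16 level of the lowest, a range of 1.77 on the log2 scale. Of 14551 genes whose log2 CPM averaged 1 or more, 99.8% had a smaller range among the SCI mice, and the median range was 0.205. The range of Fkbp5 among the SCI mice (0.865) was larger than that of 97.9% of genes, of Tsc22d3 (0.591) than 93.4%, of Klf9 (0.573) than 92.8% and of Sgk1 (0.537) than 91.2%. For Hsd11b1 this share was 96.6%, for Mt1 81.6%, for Nr3c1 53.1% and for Nr3c2 40.5%. Among the SCI+FIPI mice it was 99.2% for Zbtb16, 97.9% for Hsd11b1, 93.3% for Fkbp5 and 89.7% for Tsc22d3, but 64.8% for Klf9 and 40.3% for Sgk1. In Sham the ranges of the 5 targets were larger than those of 41.1% to 75.2% of genes. The genes compared were not matched for level, and Hsd11b1 had only 3.16 to 5.36 CPM in the SCI mice. The part of level in these shares was not tested.

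One mouse was lowest in SCI for 7 of the 9 tested genes, as noticed after the values were seen. SCI mouse 3 had the lowest level of the 5 targets Fkbp5, Tsc22d3, Sgk1, Zbtb16 and Klf9 in its group, and also of Hsd11b1 and Mt1, and it was lowest in 35.0% of all genes tested. SCI mouse 2 was highest for 4 of the 5 targets (30.4% of all genes), and mouse 1 for Fkbp5. In SCI+FIPI, mouse 2 was highest for 4 of the 5 (32.6% of all genes), the exception being Sgk1. Of 17 other genes known to be induced by glucocorticoids, SCI mouse 1 was lowest in 10 (34.9% of all genes) and mouse 3 in 6. SCI mouse 2 was highest in 11 of the 17. In SCI+FIPI, mouse 1 was lowest in 12 of the 17 and in 3 of the 5 targets (33.5% of all genes). SCI mouse 3 also had the lowest level of the neuron marker Snap25 in its group (409.6 CPM, beside 624 and 556), and the part of this in the target levels was not tested. Without SCI mouse 3, the log2 fold change in SCI against Sham was 1.58 for Fkbp5 and 0.60 for Zbtb16, and of these genes Fkbp5 passed both limits.

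**Figure D3:**
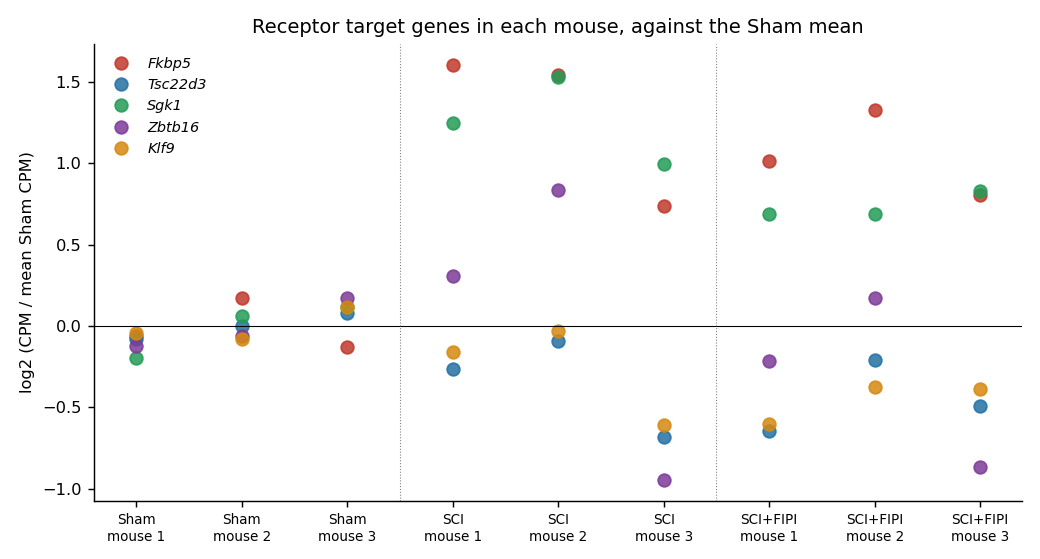
Level of 5 receptor targets in each of the 9 mice as log2 of CPM over the mean CPM of the Sham mice, with 1 colour per gene and a line at 0 for the Sham mean. Among the SCI mice, mouse 3 had the lowest point of all 5 genes. Fkbp5 and Sgk1 were above 0 in every injured mouse, and Tsc22d3 and Klf9 were below 0.

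Mt1 (chr8:94179082-94180327, plus strand) encodes a metal-binding protein induced by zinc, oxidative stress and glucocorticoids. Sham mice had 343, 421 and 269 CPM. SCI mice had 817, 701 and 622 CPM. With FIPI they were 602, 707 and 727 CPM. All injured mice were above all Sham mice, and the injured groups overlapped. The log2 fold change of Mt1 was 1.05 ± 0.167 in SCI against Sham (2.07-fold) and 0.98 ± 0.167 in SCI+FIPI against Sham (1.97-fold). Between the injured groups it was -0.07 (95% interval -0.45 to 0.31). Astrocytes are a main source of metallothionein in the cord, and the summed CPM of 5 astrocyte markers was 7383 to 7831 in Sham, 11440 to 13170 in SCI and 11680 to 12200 in SCI+FIPI. The markers did not move together in SCI against Sham: Gfap, Aqp4 and Aldh1l1 were higher past both limits (Gfap from 4132 to 9611 CPM on average), Slc1a2 was lower (from 2341 to 1330 CPM) and Slc1a3 was at 127 CPM in both groups. Their part in the level of Mt1 was not tested.

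Mt2 (chr8:94172664-94173568, plus strand), the neighbour of Mt1, had counts of 0, 0 and 0 in Sham, 2, 2 and 0 in SCI and 0, 1 and 0 in SCI+FIPI. It did not pass the filter on low counts and was not tested. All 9 values were below 3 counts, which equals 0.124 to 0.144 CPM per mouse, so no level can be read. The antisense gene Gm45774 covers 432 of the 588 exonic bases of Mt2 on the opposite strand and had 0 to 13 counts per mouse. Whether the counting used the strand is not given in the sources used here, and its part in the low count of Mt2 was not tested.

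The windows before the annotated starts of both metallothionein genes are shown because metal response elements mark the other, hormone-independent route to their induction. The core letters TGCACNC or TGCGCNC were searched on both strands in the same windows, and 21.4% of all windows held at least 1 match and 1.26% at least 3. Mt2 had 3 matches (chr8:94172368-94172617, plus strand), which begin 223, 128 and 50 bases before its start, and this window lies within an exon of Gm45774. Mt1 had 1 match (chr8:94178839-94179088, plus strand), 23 bases before its annotated start, and the last 7 bases of this window belong to the first exon of Mt1 in GENCODE. Sequence beyond these windows was not searched, so the number of elements in either whole promoter is not given. Capitals mark the matches, and the sequences are those of RefSeq on GRCm38.p6:

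Mt1: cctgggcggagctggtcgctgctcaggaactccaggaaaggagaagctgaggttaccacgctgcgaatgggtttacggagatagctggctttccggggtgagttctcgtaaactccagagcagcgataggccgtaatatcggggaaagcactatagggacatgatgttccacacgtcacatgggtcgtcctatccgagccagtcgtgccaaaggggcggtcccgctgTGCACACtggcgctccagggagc

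Mt2: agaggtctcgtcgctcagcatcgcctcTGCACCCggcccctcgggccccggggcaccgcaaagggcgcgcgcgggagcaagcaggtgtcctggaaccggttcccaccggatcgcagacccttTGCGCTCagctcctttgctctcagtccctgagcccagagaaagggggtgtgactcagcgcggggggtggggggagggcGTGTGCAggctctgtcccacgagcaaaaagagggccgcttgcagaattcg

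Hsd11b1 and Nr3c2 each had a window with 1 such match, and the windows of Sgk1, Fkbp5, Klf9 and Tsc22d3 had none.

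Per length, Mt1 was the most abundant of the genes in each group, at 279 ± 65.1 FPKM in Sham, 566 ± 78.4 in SCI and 547 ± 55.7 in SCI+FIPI (SD, n = 3). Tsc22d3 (33.6 ± 1.77) and then Sgk1 (25.9 ± 2.93) came next in Sham. Sgk1 preceded Tsc22d3 in SCI (61.4 ± 11.3 and 26.3 ± 5.23) and in SCI+FIPI (43.0 ± 2.59 and 24.7 ± 3.86). Klf9 and Nr3c1 followed in each group, at 13.5 to 18.5 and 11.3 to 11.8 FPKM. Hsd11b1 was at 7.14 ± 0.50 FPKM in Sham, above Nr3c2 (5.82 ± 0.318), and at 1.01 ± 0.259 in SCI, the lowest of the 9 tested genes. Fkbp5 was the lowest of the 9 in Sham (2.86 ± 0.361 FPKM), with Zbtb16 next to it (3.10 ± 0.320) and within its spread.

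**Figure D4:**
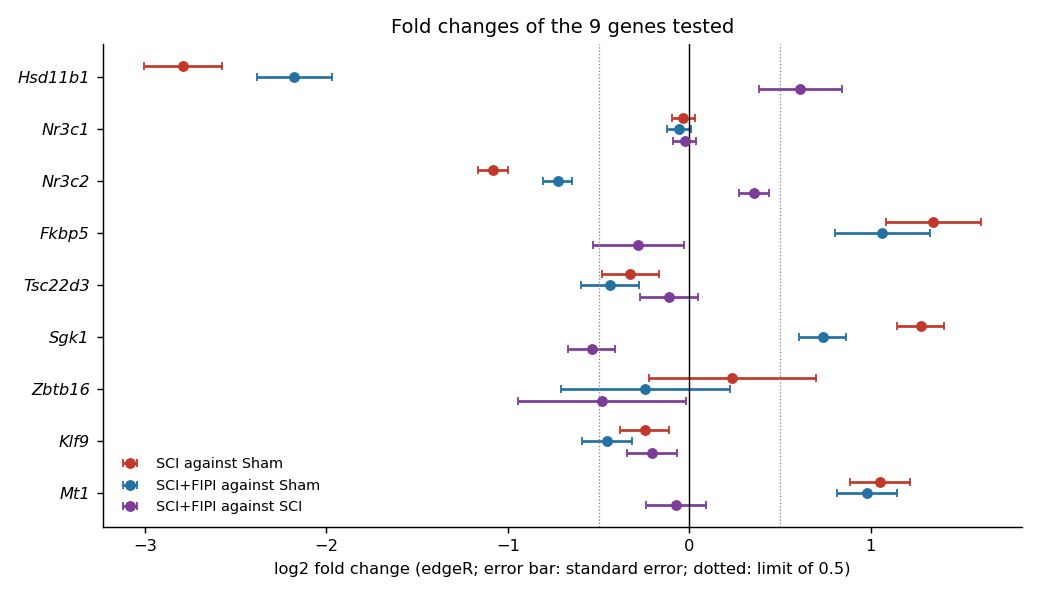
Log2 fold change of the 9 tested genes in the 3 comparisons, from edgeR, with the standard error as error bar and dotted lines at the limit of 0.5. Hsd11b1 was at -2.79 and -2.18 in the comparisons with Sham, Nr3c1 was near 0 in all 3, and in SCI+FIPI against SCI Sgk1 was at -0.54.

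The genes that supply, inactivate or export the steroid were measured beside Hsd11b1. This list and the lists that follow were drawn up with earlier results of these mice known. Their adjusted p-values are therefore given as a description. In these lists a gene is said to rise or fall only where it passed both limits. Of 6 listed, 5 could be tested, and Serpina6, which encodes the corticosteroid carrier of plasma, had at most 1 count in any mouse. In SCI against Sham, 2 rose and none fell, beside 24.4% of all genes higher, and the list's median log2 fold change was 0.87. H6pd, which supplies NADPH to the reductase encoded by Hsd11b1, rose by 2.18 (4.53-fold; adjusted p = 2.79e-08, quasi-likelihood test of edgeR, Benjamini-Hochberg adjustment). Its levels were 11.6, 13.5 and 10.3 CPM in Sham mice, 47.8, 57.2 and 55.4 CPM in SCI mice and 53.3, 39.2 and 43.0 CPM in SCI+FIPI mice. H6pd and Hsd11b1 differed from Sham in opposite directions in every injured mouse. Abcb1b, an efflux transporter that carries glucocorticoids, rose by 1.42 (adjusted p = 5.88e-07, edgeR). Hsd11b2, whose product inactivates corticosterone, had 0.484 CPM on average in Sham and 0.891 in SCI and did not pass (log2 fold change 0.87, adjusted p = 0.0678, edgeR). None of the 5 passed the limits in SCI+FIPI against SCI (median -0.06), beside 3.06% of all genes. H6pd and Abcb1b rose against Sham in SCI+FIPI as well, beside 21.2% of all genes higher.

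Of 13 receptor chaperones and cofactors, all were tested, 5 fell and none rose in SCI against Sham, with a median of -0.28, beside 22.5% of all genes lower. Stip1, which hands the receptor from one heat shock protein to the next, fell by 1.01 (adjusted p = 1.36e-07, edgeR). Hsp90aa1, the inducible form of the main chaperone of the receptor, fell by 0.94 (adjusted p = 9.51e-08, edgeR), although 58.5% of its 50-base stretches also occur in other genes. Ncoa1, a coactivator of nuclear receptors, fell by 0.73 (adjusted p = 1.97e-08, edgeR). The co-chaperones Fkbp4 and Ppid fell by 0.68 and 0.67. Fkbp5 differed in direction from the co-chaperones Fkbp4, Ppid and Stip1. Of the same list, Ptges3 (-0.10), St13 (-0.09) and Bag1 (0.10) were among the genes that did not pass the limits. All 5 neuron markers also fell (median -1.64), and their part in the level of these genes was not tested. None of the 13 passed the limits in SCI+FIPI against SCI (median 0.08), beside 3.06% of all genes. In SCI+FIPI against Sham 5 fell and none rose, beside 17.0% of all genes lower and 21.2% higher.

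Of 17 other genes known to be induced by glucocorticoids, 9 rose past both limits and none fell past them in SCI against Sham. Of all genes 24.4% were higher, and the median of the 17 was 0.96. A negative value was found for 2 of the 17. Of these, Glul was lower in every SCI mouse than in every Sham mouse (log2 fold change -0.45), below the limit on the fold change. Anxa1, which encodes an anti-inflammatory annexin, rose by 2.81 (7.00-fold; adjusted p = 0.00100, edgeR), Il1r2, the decoy receptor of interleukin-1, by 2.42 (adjusted p = 0.000139, edgeR) and Cebpd, a transcription factor of the acute phase, by 1.95 (adjusted p = 0.000167, edgeR). Many of these genes also respond to inflammatory signals and are expressed in myeloid cells. Microglia and macrophage markers summed to 304 to 406 CPM in Sham and 1510 to 1801 CPM in SCI, and fibroblast markers to 298 to 884 and 8704 to 11750 CPM, and their part in these rises was not tested. Against Sham, 7 rose and none fell in SCI+FIPI (median 0.61), beside 21.2% of all genes higher and 17.0% lower.

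Il1r2 was the only gene of the 17 to pass the limits in SCI+FIPI against SCI, beside 3.06% of all genes. The SCI mice had 1.42, 3.68 and 1.81 CPM and the SCI+FIPI mice 0.536, 1.10 and 0.796 CPM, from 34 to 89 and 12 to 26 counts. It fell by 1.497 ± 0.383 (adjusted p = 0.0258, edgeR), and every SCI+FIPI mouse was below every SCI mouse. None of the 41 tested genes of these lists passed without SCI mouse 2, SCI+FIPI mouse 2 or SCI+FIPI mouse 3. The median of the 17 genes was -0.28, and 13 of them had a negative value. Mertk was also lower in every SCI+FIPI mouse than in every SCI mouse (95.79 CPM on average in SCI, 70.27 in SCI+FIPI). Its log2 fold change of -0.45 (adjusted p = 0.00516, edgeR) was below the limit on the fold change.

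Of 6 genes of metal handling, 2 rose and none fell in SCI against Sham (median 0.22), beside 24.4% of all genes higher. Hmox1, the heme-degrading enzyme induced by oxidative stress, rose by 4.70 (26.0-fold; adjusted p = 4.20e-06, edgeR), and Slc39a14, a zinc and iron importer, rose by 0.96 (adjusted p = 3.43e-07, edgeR). The macrophage marker Cd68 was 23.4-fold higher in the same comparison and 6 of 7 microglia and macrophage markers rose, and their part in the level of Hmox1 was not tested. Slc39a10, another zinc importer, had -0.38, below the limit on the fold change. Mt3, the metallothionein of neural cells, had 192.6 CPM on average in Sham and 220.0 in SCI, a log2 fold change of 0.19 that did not pass (adjusted p = 0.122, edgeR). The ratio of Mt1 to Mt3 in FPKM, chosen after the values were seen, was 1.52 ± 0.177 in Sham, 2.77 ± 0.233 in SCI and 2.64 ± 0.0665 in SCI+FIPI (SD, n = 3). None of the 6 passed in SCI+FIPI against SCI (median -0.07), beside 3.06% of all genes. In SCI+FIPI against Sham 2 rose and none fell, beside 21.2% of all genes higher and 17.0% lower.

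**Figure D5:**
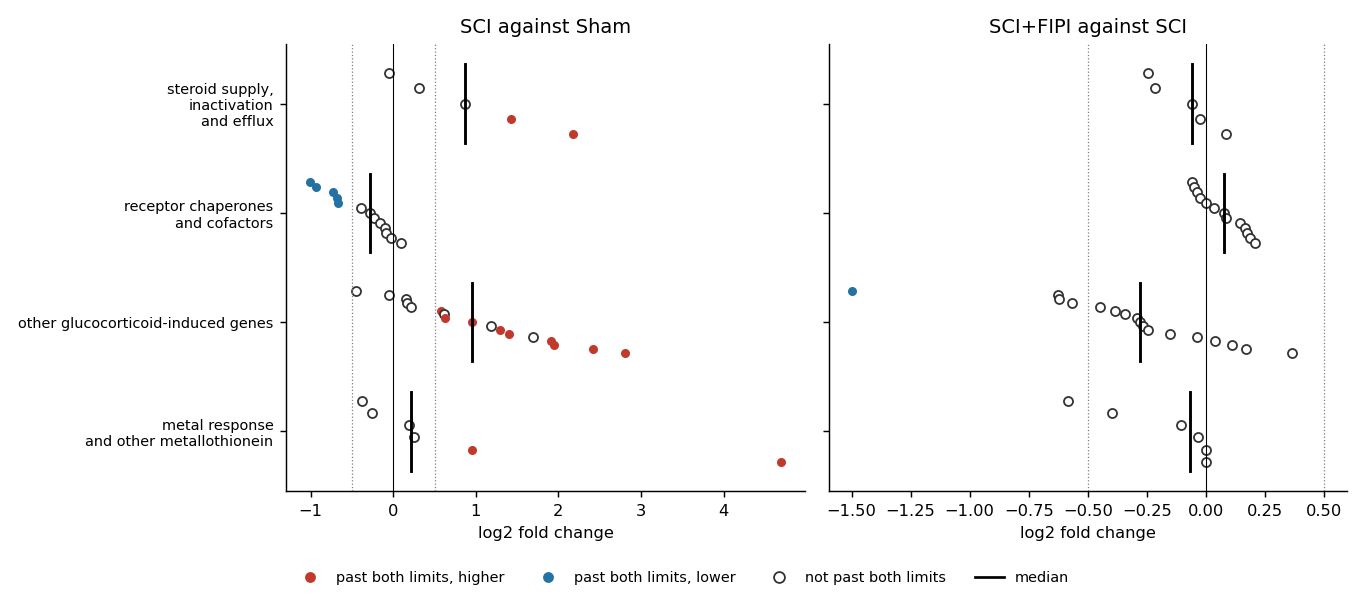
Log2 fold changes of the 41 tested genes of the 4 other pathway lists in SCI against Sham (left) and SCI+FIPI against SCI (right), on separate horizontal scales. Each point is a gene, filled where it passed both limits, and the vertical bar is the list's median. On the left 13 genes were higher and 5 lower, and on the right Il1r2 alone passed, as lower.

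Over the 4 lists, 13 of 41 genes rose and 5 fell in SCI against Sham, beside 24.4% and 22.5% of all genes. None rose and 1 fell in SCI+FIPI against SCI, beside 2.36% and 0.695%. Against Sham, 11 rose and 5 fell in SCI+FIPI, beside 21.2% and 17.0%. The lists were drawn up with earlier results of these mice known.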

How the data were processed

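Gene counts of 9 spinal cord RNA libraries (3 mice each in Sham, SCI and SCI+FIPI, grouped by the labels) were analysed. The authors removed low-quality and adapter sequence and deposited raw counts, which were not normalized. The submitters' processing notes name the build GRCm38 and R 4.2.3. The aligner, counter, annotation and use of strand are not given in the sources used here. Of 52550 gene identifiers, 52403 matched GENCODE M21. That the groups hold separate animals follows from the study's design, and the p-values measure the spread between these mice.

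Counts were fitted for all 9 mice with edgeR 4.0.16 in R 4.3.3 (TMM factors, filterByExpr, quasi-likelihood test with robust estimation, Benjamini-Hochberg adjustment over 18699 genes). Both limits, a log2 fold change of 0.5 or more in size and an adjusted p-value below 0.05, come from the study's methods, which name no test. CPM used TMM-scaled totals. FPKM values were computed from the count, the library total and the exonic length. Total counts were 20806000 to 24016169 in Sham, 23981165 to 24582377 in SCI and 22364964 to 23703938 in SCI+FIPI. The common dispersion was 0.00866. The steps were tested on simulated data.

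The genes, lists and tests were chosen with earlier results of these data known. Named were the 10 genes, those of the other lists past both limits in SCI+FIPI against SCI, and the 3 largest changes per list in SCI against Sham. Fkbp4, Ppid, Ptges3, St13, Bag1, Mt3, Glul and Mertk were named after their values were seen. Alternatives were DESeq2 1.42.0, RLE factors, other filters, no fold limit, offsets for GC content and length, the replicate number as a block, a fit of only the groups compared, and each mouse left out. Figures used matplotlib 3.10.9 in Python 3.11.15.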

Additional observations from a re-analysis of the deposited data

How the results depend on the processing

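The 5 genes past both limits in SCI against Sham and in SCI+FIPI against Sham numbered 5 under every alternative run, except in SCI+FIPI against Sham, where they were 6 without SCI+FIPI mouse 2 and 7 with no fold limit. In SCI+FIPI against SCI the number of the 9 genes past the limits was 0 to 1 when each mouse was left out, and 2 with no fold limit, with no filter on low counts or with DESeq2. Hsd11b1 was the second gene in the last 2 settings, at 0.61 in both. Of the 41 other pathway genes, 1 passed in this comparison, against 4 with no fold limit, 0 with at least 10 counts in every mouse (which removes Il1r2), 2 with DESeq2 or a fit of only the groups compared, and 0 to 2 with a mouse left out. In SCI against Sham and SCI+FIPI against Sham these counts were 16 to 20 and 14 to 17 with a mouse left out. Of all genes, 1800 and 11060 passed with no fold limit in SCI+FIPI against SCI and SCI+FIPI against Sham, and 189 to 1038, 6675 to 7186 and, in SCI against Sham, 8373 to 8851 with a mouse left out. With offsets for GC content and length, 349 of 562 genes past the limits in SCI+FIPI against SCI were higher, against 442 of 572 without.

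Directions turned for values near 0. For Nr3c1, offsets gave 0.22 in SCI against Sham and 0.15 in SCI+FIPI against Sham, and leaving out a mouse gave values from -0.10 to 0.0074 (0.0036 without SCI mouse 1) in the former and -0.0627 to 0.0494 in SCI+FIPI against SCI. For Zbtb16 in SCI against Sham the range was -0.18 to 0.60, and in SCI+FIPI against SCI it was -0.162 to 0.0419 for Mt1 (0.0064 without SCI+FIPI mouse 1) and -0.264 to 0.0194 for Tsc22d3. The cause was not tested.

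The replicate numbers of the labels recur in each group on different animals. Deviations of same-numbered mice from their group means correlated at -0.07 to 0.11 (9 pairs), and those of differently numbered mice at -0.11 to 0.09 (18 pairs), so the numbers were not taken as pairs. With the replicate number as a block, 8744, 555 and 7115 genes passed the limits in SCI against Sham, SCI+FIPI against SCI and SCI+FIPI against Sham, and 2 of the 41 pathway genes in SCI+FIPI against SCI, also with the block and offsets together. With both, Nr3c1 was at 0.21 and 0.15 in the comparisons with Sham and Zbtb16 at -0.0104 in SCI against Sham. The block changed no other call of the genes described.

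Few counts lie behind Il1r2 (at most 89 in any mouse), and none or nearly none behind Mt2 and Serpina6, so their values are imprecise or unreadable. With 3 mice per group, the 95% interval of Zbtb16 included 0 in SCI against Sham (-0.865 to 1.341). It also did so in SCI+FIPI against SCI (-1.594 to 0.632).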
